A study of Magallana hongkongensis with 2 samples.

Results

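Polyadenylated RNA from adult gill of the Hong Kong oyster, Crassostrea hongkongensis, an estuarine bivalve, was sequenced, and the transcripts of mobile elements in it are described here. The members are the unigenes (assembled transcripts) whose description, taken from the best protein match, holds a word for a transposon protein: RNA-directed DNA polymerase, a word beginning with transpos, reverse transcriptase, Pol polyprotein or PiggyBac. They number 138 of the 21226 unigenes in the files. The words use no measured value, but the set was chosen with earlier results of these data known.

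Wild oysters were acclimated for 2 weeks. The library labelled thermal stress comes from oysters put into seawater at 37 °C for 1 h and then moved back to 23 °C, and pools gill from 10 oysters. The library labelled control comes from oysters kept at 23 °C, and its number of oysters is not given. Each group has 1 library, with 4173215 uniquely mapped reads in the library labelled thermal stress and 3925349 in the library labelled control. There is no replicate check and no p-value, and every interval covers counting error only. Differences are therefore between these 2 libraries, not between conditions, and reads of each are called thermal-stress-labelled or control-labelled.

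Heat shock transcripts went against the labels. Heat shock protein 70 B2, an inducible chaperone (Unigene0016013), had 321 reads in the library labelled thermal stress and 19995 in the library labelled control. The chaperone heat shock protein 90 (Unigene0015010) had 3478 reads in the library labelled thermal stress, against 54239 in the library labelled control. Because of this, the name of each library below is its label only. Cilia words, used as markers of gill epithelium and including tubulin, caught 167 unigenes. They took 5.95% of reads under the thermal stress label and 4.81% under the control label, and Unigene0018155 alone held 29.4% of their reads. The muscle list of 32 unigenes took 0.366% under the thermal stress label and 0.315% under the control label. The germ cell list of 84 took 0.379% under the thermal stress label and 0.325% under the control label. The 12 of these without a sperm word, which name vitellogenin, Vasa, Nanos or Piwi, had 1641 thermal-stress-labelled and 1436 control-labelled reads, and none was called. Among them, vitellogenin (Unigene0004787), a yolk protein precursor, had 167 thermal-stress-labelled and 85 control-labelled reads. The most abundant, a Vasa homologue (Unigene0002218), had 676 thermal-stress-labelled and 739 control-labelled reads, and a Nanos-like unigene (Unigene0020910) had 0 thermal-stress-labelled reads and 1 control-labelled read. The words for food algae caught 3 unigenes, all matched to an oyster protein and none naming a photosystem or Rubisco, with 205 thermal-stress-labelled and 309 control-labelled reads, and 2 of them were called lower by the rule given below. The part of these marker differences in the mobile element values was not tested, and in bulk tissue fewer cells of a type and less RNA per cell cannot be told apart.

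Mobile elements are stretches of DNA that can copy or move themselves within a genome. LTR retrotransposons, built like retroviruses, encode a Gag protein that forms particles and a Pol polyprotein with protease, reverse transcriptase and integrase. Non-LTR retrotransposons, such as jockey and R2, use an endonuclease and a reverse transcriptase to copy their RNA into a cut in the genome. DNA transposons move as DNA with a transposase, and animal genomes hold host genes that descend from such transposases. In animals these elements are held down by small RNAs bound to Piwi and Argonaute proteins, by heterochromatin and by DNA methylation. Heat is known to raise the transcription of certain elements in plants.

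By the words of their descriptions, 30 members were LTR elements, 40 non-LTR elements and 37 DNA transposons. A further 30 gave no class, most of them described as like retr-1, a retrotransposon-like family. The last member was telomerase reverse transcriptase (Unigene0024524), a host enzyme that extends chromosome ends and is no mobile element; it had 2 reads in the library labelled thermal stress and 5 in the library labelled control. Names can also stand for host genes derived from elements: 17 members carried names of the pogo, tigger, piggyBac or retrotransposon Gag domain kind that are borne by such genes in vertebrates. Only 55 distinct full descriptions covered the 138 members, and 105 members shared theirs with another. These may be copies of an element, relatives, or pieces of 1 transcript, so members are not independent of each other.

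The members stood apart from other unigenes in what they matched, but the same best match supplied the words that chose them. The part of that choice in the shares below was not tested. The best match lay in the Pacific oyster (Crassostrea gigas) for 19 of 138 members, or 13.8%, against 77.1% of all unigenes. The acorn worm Saccoglossus kowalevskii was the most frequent match, with 36 members, and the sea urchin Strongylocentrotus purpuratus followed the Pacific oyster with 12. In all, the matches spread over 34 species, among them insects, fishes and flatworms. A KEGG pathway was annotated for 5.07% of the members and 23.3% of all unigenes.

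They also had few uniquely mapped reads. Reads that fit several copies of an element equally are not counted, and the part of this in the levels below was not tested. The median member had 22.5 reads over both libraries, against 97 for all unigenes. Per length, the median level was 2.46 RPKM in the library labelled thermal stress and 2.40 RPKM in the library labelled control, against 11.04 RPKM under the thermal stress label and 9.88 under the control label for all unigenes. Length did not set them apart in the same way, with a median of 1025 bases against 1102. Under 20 reads were found for 60 of the 138 members, or 43.5%, against 18.2% of all unigenes. These 60 are too thinly counted for a ratio and enter only the sums below. Of them, 7 were listed in 1 library only, with at most 8 reads: a pol polyprotein unigene (Unigene0000608) had 8 reads in the library labelled thermal stress and 0 in the library labelled control, where a count of 0 allows up to 3 reads.

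**Figure D1:**
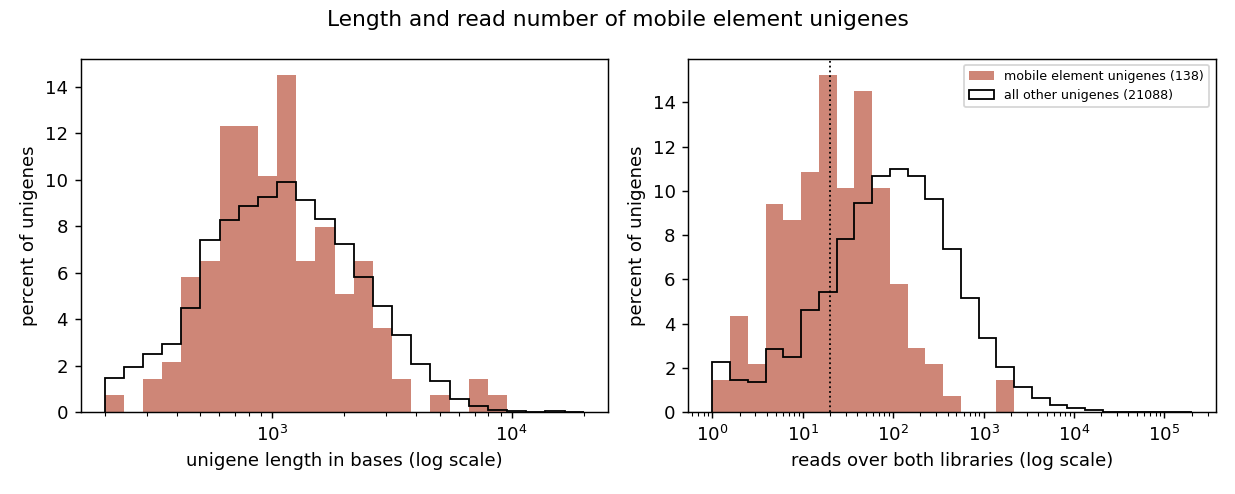
Unigene length in bases (left) and reads over both libraries (right), both on log axes, as percent of the 138 mobile element unigenes (filled) and of the 21088 other unigenes (line). The lengths overlap broadly, while the read numbers of mobile element unigenes lie lower, around a median of 22.5; the dotted line marks 20 reads.

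The share of reads held by all 138 members was 0.126% in the library labelled thermal stress, with an exact 95% interval from 0.122 to 0.129%, and 0.108% in the library labelled control, with one from 0.105 to 0.111%. As a ratio of thermal stress label over control label, scaled by library totals, the sum was 1.17 (1.12 to 1.21). With TMM factors, a scaling that takes the typical unigene as equal, it was 1.04 (0.998 to 1.08), an interval that includes 1. The reads were concentrated in a few transcripts: the top 2 held 36.7% of all member reads and the top 10 held 57.7%. The most abundant was the R2 unigene (Unigene0017904, 1693 bases), described as a Pol polyprotein of a type-1 retrotransposable element and matched to a liver fluke protein. R2 is a non-LTR element that in other animals inserts into ribosomal RNA genes. It had 1032 reads in the library labelled thermal stress and 840 in the library labelled control, or 146 RPKM under the thermal stress label and 126 under the control label, and ranked 621 of 21226 by reads. The second was a Gap-Pol polyprotein (Unigene0031819), at 9094 bases the longest member, with 1074 thermal-stress-labelled and 532 control-labelled reads. Without this Gap-Pol unigene the summed ratio of the members was 1.06 (1.01 to 1.11), and without R2 it was 1.17 (1.12 to 1.22).

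**Figure D2:**
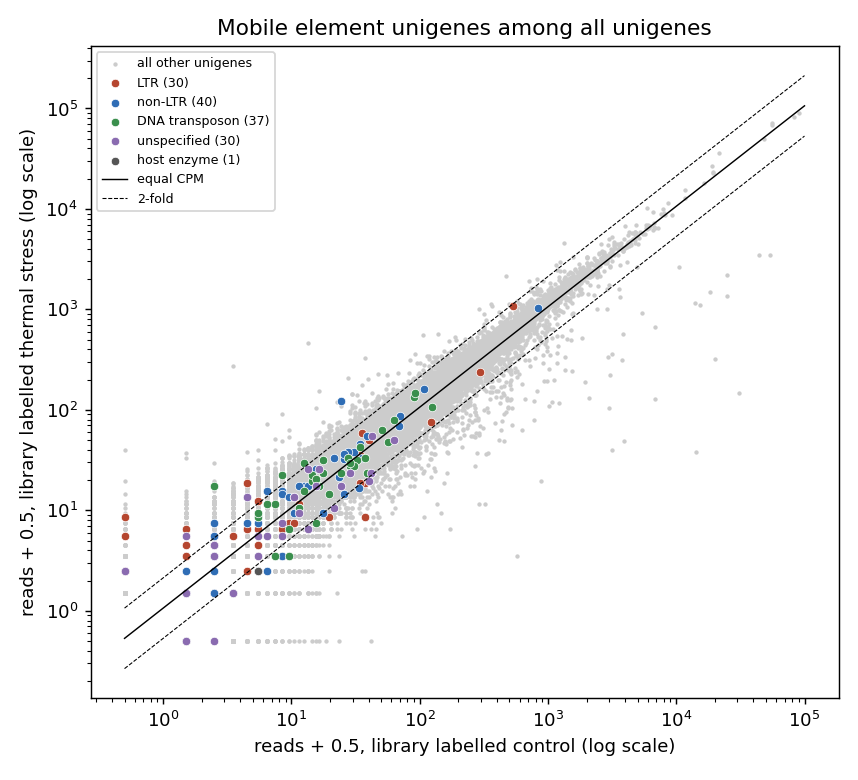
Reads + 0.5 of each unigene in the library labelled thermal stress (vertical) and in the library labelled control (horizontal), both on log axes, with mobile element unigenes coloured by class. Of the 78 coloured points with 20 or more reads, 67 were called neither higher nor lower, and the 2 with most reads are the R2 unigene, with 1032 reads under the thermal stress label and 840 under the control label, and the Gap-Pol unigene, with 1074 under the thermal stress label and 532 under the control label.

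A ratio was called higher or lower when a unigene had at least 20 reads over both libraries, differed at least 2-fold in CPM (reads scaled by the library total) and had a 95% counting interval that excluded 1. Ratios are given as thermal stress label over control label. Of the 78 members with enough reads, 4 were called higher and 7 lower. Over all 17364 unigenes with enough reads, 3.97% were called higher and 3.25% lower; among the 78 members it was 5.13% and 8.97%. In either direction 14.1% of the members were called, beside 7.22% of all unigenes. With TMM factors, 3 members were called higher and 9 lower. The calls over all 17364 unigenes shifted the same way, to 406 higher and 759 lower. The median log2 ratio of the 78 was 0.21, beside 0.17 for all unigenes with enough reads. Without the 2-fold rule, the counting interval alone excluded 1 for 10 members on the higher side and 11 on the lower, against 23.0% and 8.91% of all unigenes with enough reads. The middle of the distribution was thus close to that of the transcriptome, while the quartiles of the members lay farther apart, at -0.33 and 0.44 against -0.11 and 0.43.

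Since ratios of thinly counted unigenes scatter more, the calls were also set beside unigenes with like numbers of reads. Of 38 members with 20 to 49 reads, 7.89% were called higher and 10.5% lower, against 8.66% and 4.02% of all unigenes in that range. Of 25 members with 50 to 99 reads, 0 were called higher and 3 lower, against 5.78% and 3.34%. Among the 63 members with 20 to 99 reads, 3 were called higher, or 4.76%, and 7 lower, or 11.1%. Among all 6861 unigenes in that range, 7.20% were called higher and 3.67% lower. All 7 lower calls of the members therefore fell in a range where lower calls were 3.67% of unigenes. Of the 15 members with 100 reads or more, 1 was called higher and none lower, against 1.87% and 2.97% of all unigenes in that range.

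LTR retrotransposons held the widest spread. Their 30 members had 1703 reads in the library labelled thermal stress and 1260 in the library labelled control, a summed ratio of 1.27 (1.18 to 1.37). The long Gap-Pol unigene (Unigene0031819) supplied 1074 thermal-stress-labelled and 532 control-labelled reads of these. Its ratio was 1.90 (1.71 to 2.11), just under the 2-fold rule, and its length was covered to 90.6% by thermal-stress-labelled and to 78.4% by control-labelled reads. Without it, the other 29 LTR members had 629 thermal-stress-labelled and 728 control-labelled reads, and the summed ratio turned to 0.813 (0.729 to 0.905). The class sum therefore follows 1 transcript. Without any of the 3 LTR members of 100 reads or more, the other 27 had 314 thermal-stress-labelled and 312 control-labelled reads, a ratio of 0.947 (0.807 to 1.11).

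Among the 12 LTR members with enough reads, 1 was called higher and 4 lower, or 8.33% and 33.3%. Over all unigenes with enough reads it was 3.97% and 3.25%. Over those with 20 to 99 reads, the range of these LTR calls, it was 7.20% and 3.67%. The median log2 ratio of the 12 was -0.24. The lowest ratio of any member with enough reads belonged to a pol polyprotein unigene of 5276 bases (Unigene0002712), with 8 reads in the library labelled thermal stress and 37 in the library labelled control. Its ratio was 0.203 (0.0818 to 0.444), which is 4.92 (2.25 to 12.2) as control label over thermal stress label, and thermal-stress-labelled reads covered 7.43% of its length and control-labelled reads 28.8%. A pol polyprotein of 3675 bases (Unigene0031904) had 18 thermal-stress-labelled and 37 control-labelled reads, a ratio of 0.458 (0.245 to 0.824). Both carry the same flour beetle description, as does the more abundant Unigene0009535, with 76 thermal-stress-labelled and 122 control-labelled reads and a ratio of 0.586 (0.434 to 0.787), which missed the 2-fold rule.

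The other lower calls of this class rested on fewer reads or sat at the rule's edge. Another pol polyprotein (Unigene0017853), matched to the blood fluke Schistosoma mansoni, had 18 thermal-stress-labelled and 34 control-labelled reads and a ratio of 0.498 (0.265 to 0.907), just inside the rule. A Gap-Pol polyprotein-like unigene (Unigene0020444) had 8 thermal-stress-labelled and 19 control-labelled reads, a ratio of 0.396 (0.150 to 0.947). The 1 higher call was a short Pol polyprotein unigene of 676 bases (Unigene0026636), with 18 reads in the library labelled thermal stress and 4 in the library labelled control, 4.23 as a ratio, and an interval from 1.39 to 17.2 on these few reads. A much longer unigene with the same description and species, Unigene0008026 of 7517 bases, had 50 thermal-stress-labelled and 40 control-labelled reads and a ratio of 1.18 (0.760 to 1.83). The intervals of these 2 ratios overlap. The other long Gap-Pol unigene, Unigene0003525 of 7030 bases, had 239 thermal-stress-labelled and 294 control-labelled reads, a ratio of 0.765 (0.642 to 0.910). Of the long Gap-Pol unigenes, then, the more abundant was higher and the other lower in the library labelled thermal stress, each beyond counting error.

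Non-LTR retrotransposons had a summed ratio above 1. Their 40 members had 2036 thermal-stress-labelled and 1589 control-labelled reads, a summed ratio of 1.21 (1.13 to 1.29), or 1.08 with TMM factors. Of the 26 with enough reads, 19 had a ratio above 1, beside 11485 of all 17364 unigenes. Of the 26, 1 was called higher and 1 lower, or 3.85% each, beside 3.97% and 3.25% of all unigenes. Their median log2 ratio was 0.35. R2 (Unigene0017904) made up 51.6% of the class reads. Its own ratio, 1.16 (1.05 to 1.27), was close to that of the typical unigene, and with TMM factors it was 1.03 (0.940 to 1.13).

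The transcript with the largest ratio among the members with enough reads was a jockey-like unigene of 813 bases (Unigene0009642), described as an RNA-directed DNA polymerase. It had 121 reads in the library labelled thermal stress and 24 in the library labelled control, a ratio of 4.74 (3.04 to 7.69). Taken the other way round, as control label over thermal stress label, Unigene0002712 had the larger difference, at 4.92 (2.25 to 12.2). Per length, Unigene0009642 came to 35.7 RPKM under the thermal stress label and 7.52 under the control label. Among the members, only R2 had a higher level than it in the library labelled thermal stress. Reads covered 79.0% of its length in the library labelled thermal stress and 70.5% in the library labelled control, so in both libraries they were spread over most of it. It was the only member called higher with 100 reads or more.

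The other jockey-like unigenes did not share a ratio of that size. The family has 16 members, 10 of them with enough reads, and the other 9 had ratios from 0.498 (Unigene0003182, 9 thermal-stress-labelled and 17 control-labelled reads) to 1.57 (Unigene0015879, 25 thermal-stress-labelled and 15 control-labelled reads), all with intervals that included 1. The most abundant of them, Unigene0021038, had 86 thermal-stress-labelled and 70 control-labelled reads and a ratio of 1.16 (0.833 to 1.61). The family sum of 443 thermal-stress-labelled and 286 control-labelled reads gave a ratio of 1.46 (1.25 to 1.70), of which 121 thermal-stress-labelled and 24 control-labelled reads came from Unigene0009642.

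The remaining non-LTR families held 1 call. Endonuclease-reverse transcriptase unigenes, 14 in number, had 453 thermal-stress-labelled and 385 control-labelled reads, a ratio of 1.11 (0.964 to 1.27). The most abundant, Unigene0016413, had 160 thermal-stress-labelled and 108 control-labelled reads and a ratio of 1.39 (1.08 to 1.80). Another, Unigene0022450, was called lower with 16 thermal-stress-labelled and 33 control-labelled reads, a ratio of 0.456 (0.234 to 0.852); both carry the same lancelet description. The 9 unigenes of transposon BS, a non-LTR element first named in flies, had 108 thermal-stress-labelled and 78 control-labelled reads, a ratio of 1.30 (0.964 to 1.77). Of the 5 with enough reads none was called, beside 7.22% of all unigenes called in either direction.

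**Figure D3:**
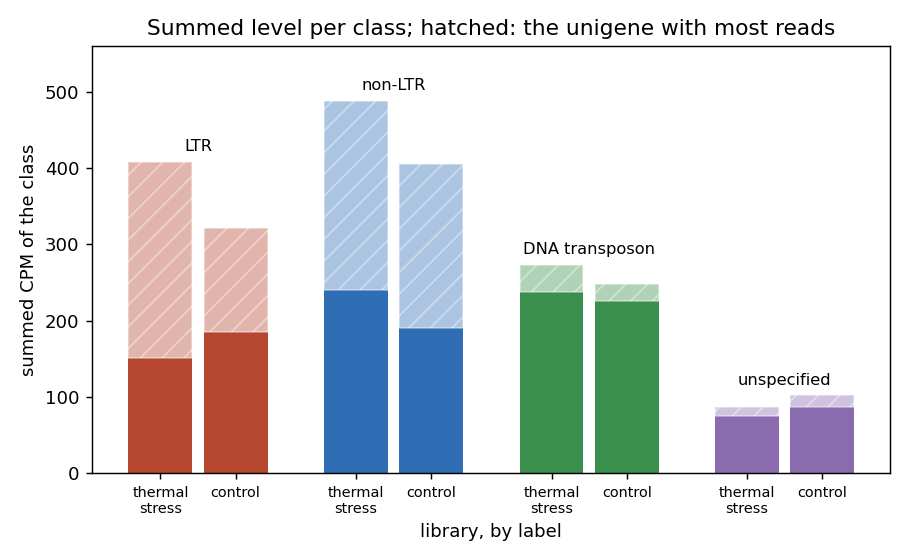
Summed CPM of each class in the library labelled thermal stress (left bar) and in the library labelled control (right bar), with the unigene of most reads hatched. The hatched Gap-Pol unigene (1074 reads under the thermal stress label, 532 under the control label) is larger in the left LTR bar, while the solid part of that bar (629 under the thermal stress label, 728 under the control label) is smaller.

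DNA transposons were near equal between the libraries. The 37 members had 1139 thermal-stress-labelled and 976 control-labelled reads, a summed ratio of 1.10 (1.01 to 1.20), which turned to 0.979 (0.898 to 1.07) with TMM factors. Of the 27 with enough reads, 14 had a ratio above 1 and 13 below, and 2 were called, both higher. That is 7.41% higher, beside 3.97% of all unigenes, and none lower, beside 3.25%. Both called unigenes had 20 to 49 reads, a range where 8.66% of all unigenes were called higher. A Tcb2 transposase unigene (Unigene0032217), of the Tc1 group of cut-and-paste elements, had 29 thermal-stress-labelled and 12 control-labelled reads, a ratio of 2.27 (1.12 to 4.89). A pogo transposable element with ZNF domain (Unigene0012519), named after a gene that in vertebrates encodes a chromatin protein, had 22 thermal-stress-labelled and 8 control-labelled reads, a ratio of 2.59 (1.11 to 6.72), and was no longer called with TMM factors (2.31, 0.989 to 5.99).

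The most abundant DNA transposon members differed less. A transposase matched to a mosquito protein (Unigene0013227) had 146 thermal-stress-labelled and 91 control-labelled reads, a ratio of 1.51 (1.15 to 1.98). A transposase domain-containing protein (Unigene0017588) had 107 thermal-stress-labelled and 124 control-labelled reads, a ratio of 0.812 (0.621 to 1.06). The most abundant pogo unigene (Unigene0032822) had 133 thermal-stress-labelled and 90 control-labelled reads, a ratio of 1.39 (1.06 to 1.84). Both piggyBac unigenes lay close to 1, the more abundant (Unigene0019064) with 33 thermal-stress-labelled and 27 control-labelled reads and a ratio of 1.15 (0.670 to 1.99). The tigger family summed to 109 thermal-stress-labelled and 107 control-labelled reads, a ratio of 0.958 (0.727 to 1.26). The 17 members with names borne by host genes together had 533 thermal-stress-labelled and 447 control-labelled reads, a ratio of 1.12 (0.987 to 1.27).

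Members without a class had a summed ratio below 1, which depended on the wording of the classes. The 30 unigenes had 364 thermal-stress-labelled and 402 control-labelled reads, a summed ratio of 0.852 (0.737 to 0.984). Without its member with most reads the ratio was 0.871 (0.745 to 1.02), and with the first wording of the classes, changed after counts were seen, it was 1.01 (0.918 to 1.11). Of the 13 with enough reads, none was called higher, beside 3.97% of all unigenes, and 2 lower, or 15.4%, beside 3.25%. Both were retr-1-like: Unigene0017087 had 19 thermal-stress-labelled and 40 control-labelled reads, a ratio of 0.447 (0.244 to 0.790), and Unigene0014506, of 3306 bases, had 10 thermal-stress-labelled and 21 control-labelled reads, a ratio of 0.448 (0.188 to 0.994), at the edge of the counting interval. A further retr-1-like unigene, Unigene0015714, had 23 thermal-stress-labelled and 41 control-labelled reads and a ratio of 0.528 (0.302 to 0.900), just outside the 2-fold rule. The most abundant of the family, Unigene0015340, had 54 thermal-stress-labelled and 42 control-labelled reads and a ratio of 1.21 (0.793 to 1.86). The family of 21 thus held ratios on both sides of 1. Outside that family, a reverse transcriptase-like protein (Unigene0021823) had 50 thermal-stress-labelled and 63 control-labelled reads, a ratio of 0.747 (0.504 to 1.10).

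**Figure D4:**
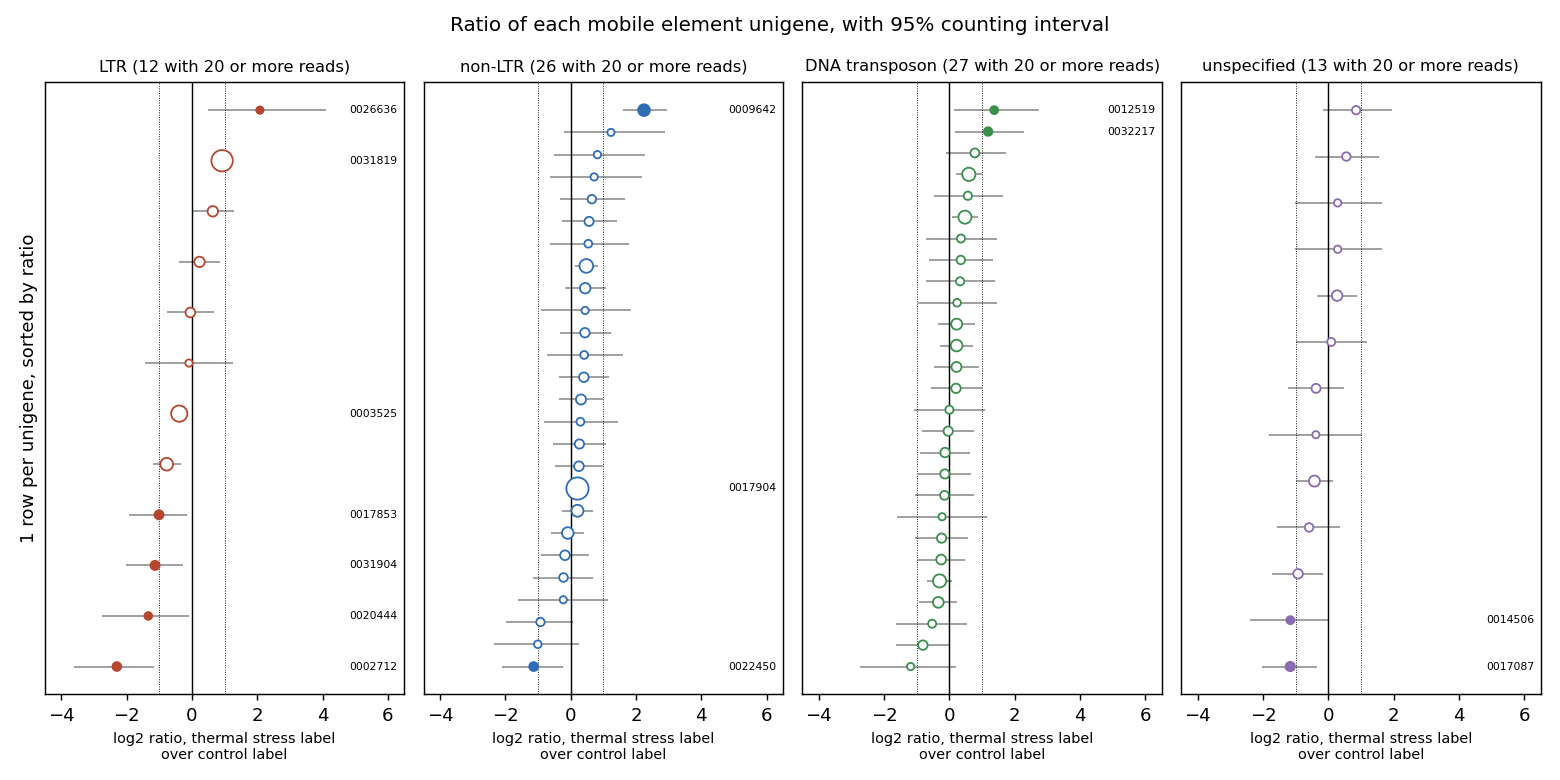
Log2 ratio, thermal stress label over control label, of the 78 mobile element unigenes with 20 or more reads, by class, with 95% counting intervals; point area grows with reads, filled points were called, and dotted lines mark 2-fold. The numbers are unigene numbers of called unigenes and of those with 500 reads or more. LTR members hold 4 lower calls and 1 higher, while most intervals of the other classes include 0.

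Called members were also described by length. The 4 members called higher had 673 to 870 bases, and the 7 called lower had 1020 to 5276 bases, so the lengths did not overlap. Over all unigenes, the 690 called higher had a median of 937.5 bases and the 564 called lower one of 1015.5 bases, with broadly overlapping ranges. The comparison was made after the calls were seen and describes 11 members. Of the 4 members of 5000 bases or longer, 2 had a ratio above 1 (Unigene0031819 and Unigene0008026) and 2 below (Unigene0003525 and Unigene0002712). The 66 members under 1000 bases had 812 thermal-stress-labelled and 569 control-labelled reads, a summed ratio of 1.34, of which Unigene0009642 supplied 121 thermal-stress-labelled and 24 control-labelled ones.

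The deposited coverage shows how far reads spread along each transcript. For R2 (Unigene0017904), reads covered 81.6% of its length in the library labelled thermal stress and 82.5% in the library labelled control. The 76 other unigenes of like length and read number had medians of 97.7% under the thermal stress label, where 9 of them were lower than R2, and 96.7% under the control label, where 7 were. For the long Gap-Pol unigene (Unigene0031819) only 5 unigenes were alike, with medians of 87.4% under the thermal stress label and 84.0% under the control label. For members of 500 to 1500 bases with 20 to 49 reads, 27 in number, the median coverage was 47.7% under the thermal stress label and 42.4% under the control label. The 2313 other unigenes in that range had 54.7% under the thermal stress label and 49.05% under the control label. In other ranges the difference varied in size and, in 1 library, in direction. The 11 members of 500 to 1500 bases with 50 to 99 reads had 71.4% under the thermal stress label and 64.9% under the control label, against 72.3% under the thermal stress label and 68.2% under the control label for the others. The 12 members of 1500 to 3000 bases with 50 to 99 reads had 39.3% under the thermal stress label and 48.3% under the control label, against 52.8% under the thermal stress label and 47.75% under the control label. The counts hold uniquely mapped reads only, so reads that fit several copies of an element equally are not in these values, and the part of this in the coverage was not tested.

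Genes that silence or restrict mobile elements were described from a list of words. The list rests on names only, and whether each of its unigenes acts on mobile elements was not tested. The list held 91 unigenes, 81 with enough reads, of which 1 was called higher and none lower, against 3.97% and 3.25% of all unigenes. Its median log2 ratio was 0.25, or 0.09 with TMM factors. Summed, the list had 10574 reads in the library labelled thermal stress and 9517 in the library labelled control, a ratio of 1.05 (1.02 to 1.07). That ratio is scaled by library totals. TMM factors shift every ratio by the same factor, which took the larger DNA transposon sum from 1.10 to 0.979. By that factor the silencing sum also falls below 1. None of the 26 unigenes of the piRNA pathway with enough reads was called. This pathway guards the germ line with Piwi proteins, Tudor scaffold proteins and the helicase Vasa, and has also been found in somatic cells of molluscs. Piwi-like protein 1 (Unigene0014371) had 303 thermal-stress-labelled and 264 control-labelled reads, a ratio of 1.08 (0.912 to 1.28), and Piwi-like protein 2 (Unigene0013791) had 150 thermal-stress-labelled and 113 control-labelled reads, a ratio of 1.25 (0.972 to 1.61). A Vasa homologue (Unigene0002218) had 676 thermal-stress-labelled and 739 control-labelled reads, a ratio of 0.860 (0.774 to 0.956).

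Small interfering RNA genes, whose Dicer enzymes cut double-stranded RNA and whose Argonautes use the pieces, had no call among 10 unigenes. An argonaute-2-like unigene (Unigene0013570) had 724 thermal-stress-labelled and 767 control-labelled reads, a ratio of 0.888 (0.801 to 0.984), and another argonaute-2 (Unigene0006730) had 493 thermal-stress-labelled and 394 control-labelled reads, a ratio of 1.18 (1.03 to 1.35). The unigene matched to drh-1, a Dicer-related helicase of nematodes (Unigene0014595), had 365 thermal-stress-labelled and 557 control-labelled reads, a ratio of 0.616 (0.539 to 0.705). The 1 call of the list was Chromobox-like protein 8 (Unigene0019092), a reader of histone methylation, with 148 thermal-stress-labelled and 65 control-labelled reads and a ratio of 2.14 (1.59 to 2.91). A chromobox 8-like unigene with more reads (Unigene0017241) had the other direction, with 673 thermal-stress-labelled and 1005 control-labelled reads and a ratio of 0.630 (0.570 to 0.695). A histone methyltransferase described as specific for lysine 9 of histone H3 (Unigene0013590) had 403 thermal-stress-labelled and 298 control-labelled reads, a ratio of 1.27 (1.09 to 1.48).

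**Figure D5:**
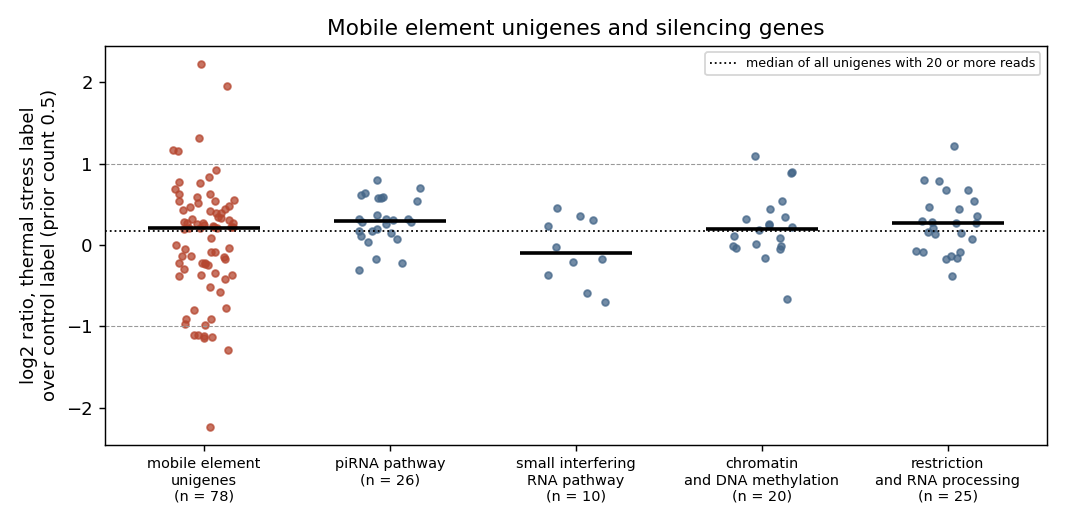
Log2 ratio, thermal stress label over control label with a prior count of 0.5, of the 78 mobile element unigenes and of silencing genes by role, each with 20 or more reads; bars are medians, the dotted line is the median of all unigenes at 0.17, and dashed lines mark 2-fold. The mobile element points reach from -2.23 to 2.22, while 1 called silencing unigene, Chromobox-like protein 8, lies past 2-fold, beside 1 whose interval included 1.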

How the data were processed

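Per the file headers, the authors deposited for each library the count of uniquely mapped reads per unigene, its length, the percent of its length covered by reads, and RPKM. The deposited counts were used as they are; the deposited RPKM equal the counts divided by length and library total, and serve for levels between unigenes. The deposited coverage percent was used as a description. CASAVA 1.4 and cutadapt 1.8.1 are named in the submitters' processing notes; aligner and assembly: not given in the sources used here. Unigenes missing from 1 of the files counted as 0 reads there.

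Counts were scaled to library totals (CPM), and ratios carry exact conditional binomial (Clopper-Pearson) 95% intervals. These intervals, like the limit of 3 reads for a count of 0, cover counting error only, and PCR copies are not independent molecules. With 1 library per group no test was run. Log2 medians used a prior count of 0.5. Scaling alternatives came from edgeR 4.0.16 (TMM) and DESeq2 1.42.0 (median of ratios), whose tests were not used; the rest was computed in Python 3.11.15 with scipy 1.17.1. The calling rule was checked on simulated counts that held planted differences and counting error only. Variation between oysters or between libraries was not part of that check.

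Members and lists were chosen with earlier results of these data known. Classes, and the words of 2 lists, were corrected after descriptions and counts were seen: R2, transposon BS and endonuclease-reverse transcriptases joined the non-LTR class, and words that caught host genes were dropped. Named members are all called ones, the 10 with most reads, the 5 longest, the 3 with most reads per class, telomerase and Unigene0009642. Named silencing genes are the called one and the 6 with most reads. Others (Unigene0000608, Unigene0003182, Unigene0015879, Unigene0019064, both Piwi-like proteins, the marker genes) were chosen after their values were seen, as were the comparisons of length and coverage.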

Additional observations from a re-analysis of the deposited data

How the results depend on the processing

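With 1 library per group no replicate could be left out, and depth limits most members: 60 of 138 had under 20 reads. No paired analysis was possible because each group has 1 library. The count of members called higher was 4, or 6 without a minimum and 1 with a stricter interval. It was 1 at a minimum of 100 reads, 7 at a ratio of 1.5 and 2 at a ratio of 4. The count called lower was 7, or 7 without a minimum and 1 with a stricter interval. It was 0 at a minimum of 100 reads, 10 at a ratio of 1.5 and 1 at a ratio of 4. Of all unigenes with 100 reads or more, 1.87% were called higher and 2.97% lower. For the other settings here the share of all unigenes is not given, so these counts describe the members alone. The median log2 ratio of the members was 0.0457 with TMM factors and 0.0430 with the median of ratios, against 0.21, because both scalings shift every ratio by the same factor and bring the median of all unigenes near 0. The same shift gave summed ratios of 1.04 and 1.04 for all members, 1.13 and 1.13 for LTR, 1.08 and 1.07 for non-LTR, and 0.979 and 0.977 for DNA transposons, which turned round; the silencing median came to 0.0856 and 0.0829, and that of other mobile element words to -0.0639 and -0.0666. Without the 2 members with most reads, an alternative chosen after seeing the data, the sum of all members was 1.03; without its member with most reads, the LTR sum turned to 0.813. With the first wording of the classes, also tried after seeing the data, the non-LTR sum was 1.46 and the sum without a class turned to 1.01, since that wording put R2 among LTR members and left transposon BS, the endonuclease-reverse transcriptases and 1 LTR member without a class. Of 25 named members, 23 kept their side of the rule under each scaling; Unigene0012519 lost its call, and Unigene0015714 was called lower with TMM factors (0.471) and with the median of ratios (0.470).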

Other observations

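Words that the member rule does not use caught 48 further unigenes with descriptions tied to mobile elements, 33 of them with enough reads. Of the 33, 4 were called higher, or 12.1%, and 1 lower, or 3.03%, beside 3.97% and 3.25% of all unigenes. These calls all had 20 to 99 reads, a range where 7.20% of all unigenes were called higher and 3.67% lower. Harbi1 (Unigene0027951), a host nuclease descended from a Harbinger transposase, had 49 reads in the library labelled thermal stress and 8 in the library labelled control, a ratio of 5.76 (2.71 to 14.1), larger than that of any member with 20 or more reads. THAP domain proteins, whose DNA-binding domain is shared with the P element transposase of flies, had 29 unigenes with 777 thermal-stress-labelled and 773 control-labelled reads, a summed ratio of 0.945 (0.855 to 1.05). Of the 18 with enough reads, 2 were called higher, or 11.1%, and 1 lower, or 5.56%. A THAP domain containing 10-like unigene (Unigene0010777), called higher, had 21 thermal-stress-labelled and 5 control-labelled reads. So was THAP domain-containing protein 4 (Unigene0010866), with 29 thermal-stress-labelled and 13 control-labelled reads. A THAP domain-containing protein 9-like unigene (Unigene0022909), called lower, had 7 thermal-stress-labelled and 20 control-labelled reads. The 11 integrase unigenes, most of them like the recombinase xerD, had 566 thermal-stress-labelled and 450 control-labelled reads, a summed ratio of 1.18 (1.04 to 1.34), and an xerD homolog (Unigene0005323) was called higher with 17 thermal-stress-labelled and 6 control-labelled reads. The single genes here were chosen after their values were seen.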
